A study of Mus musculus with 12 samples.

Results

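The 10 genes described here, *Fas*, *Tnfrsf10b*, *Eda2r*, *Bax*, *Bbc3*, *Pmaip1*, *Pidd1*, *Perp*, *Aen* and *Trp53inp1*, are targets of the transcription factor p53 that act in cell death. They were listed by name from general knowledge of p53, with earlier results of these data known, and found in the count table by matching its Ensembl identifiers to mouse gene symbols. All 10 were present among 46488 identifiers with a symbol, and all 10 passed the filter on low counts, which kept 16157 genes. RNA was sequenced from liver cancer organoid cells that had been sorted by GFP into LGR5+ and LGR5- populations. The 4 groups were untreated LGR5-, untreated LGR5+, 5-FU-treated LGR5- and 5-FU-treated LGR5+ cells, with 3 libraries each. Every library came from C57BL/6 mice with the genotype labelled LGR5-DTRGFP+, a knock-in that places GFP and the receptor for diphtheria toxin under the *Lgr5* locus, so that the sort reads the activity of that locus. Per the study's methods, tumours were induced with weekly diethylnitrosamine (DEN) started in mice a few weeks old, organoids are three-dimensional cultures of tumour cells in matrigel, and sorting left out dead cells by propidium iodide and leucocytes by CD45. 5-FU (5-fluorouracil), a uracil analogue used in chemotherapy, blocks thymidylate synthesis and enters RNA. The methods give a dose and a schedule of 5-FU for organoid viability assays, but do not tie them to the sequenced cells, nor do they give the number of organoid lines behind these libraries. Nothing states that the 3 libraries of a group came from separate cultures or animals, so P values measure the spread between these libraries, which may be technical.

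p53 is held at a low level by the ubiquitin ligase MDM2 and accumulates when DNA is damaged or when nucleotide or ribosome supply fails. It binds DNA as a tetramer and switches on genes of cell cycle arrest, DNA repair and death, and which of these outcomes follows differs between cell types. The death genes fall into layers: receptors at the cell surface that recruit caspases, proteins of the BCL2 family that open the outer mitochondrial membrane, and further targets in the plasma membrane, the nucleus and the autophagy machinery.

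The count per library ranged from 13750591 to 19323514 reads, and a count of 0 in a library allowed up to 3 reads, or 0.155 to 0.218 CPM (CPM, counts scaled to a common library size). The lowest count of any of the 10 genes in any library was 60 reads (*Pmaip1*), so none was near this limit. Mitochondrial genes took 1.47% to 3.08% of the reads in 10 libraries, but 6.93% and 6.44% in LGR5- replicate 3, untreated and 5-FU-treated. The tests of the 10 genes that use these libraries are also given without them. *Lgr5* itself did not separate the sorted groups, with 28.8 ± 6.63 CPM in untreated LGR5- cells, 25.7 ± 2.12 in untreated LGR5+ cells, 25.1 ± 9.50 in 5-FU-treated LGR5- cells and 27.0 ± 0.196 in 5-FU-treated LGR5+ cells (SD, n = 3). The labels LGR5+ and LGR5- are therefore used as names of the sorted fractions. Of the defining hepatocyte markers, *Alb* stayed under 1 CPM on average in each group and *Hnf4a* held no read in 3 of the groups. *Afp* of the same list averaged 15.8 to 44.0 CPM per group. The cholangiocyte keratin gene *Krt19* had 387 ± 14.1 CPM and the epithelial gene *Epcam* 1370 ± 113 CPM in untreated LGR5- cells. *Sftpc* and *Nkx2-1*, which mark lung epithelium, were also present, with 12400 ± 7780 and 49.3 ± 5.40 CPM in that group. Of the leucocyte markers, *Ptprc* (CD45) had 0.396 to 0.981 CPM on average per group and *Cd3e* had no read. *Cd68* of the same list, a lysosomal gene, averaged 7.41 to 37.7 CPM per group. The data are from bulk RNA, in which fewer cells of a type and less RNA per cell cannot be told apart.

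All 10 genes rose after 5-FU in LGR5+ cells, and 9 of 10 rose in LGR5- cells, where *Pmaip1* missed the threshold. The threshold was a Benjamini-Hochberg adjusted P under 0.05 in edgeR's quasi-likelihood test, adjusted over all 16157 genes tested, at which 9.66% of all genes tested were higher in LGR5+ cells and 8.30% in LGR5- cells. The median log2 fold change of the 10 genes was 1.33 in LGR5+ cells and 1.49 in LGR5- cells, beside medians of -0.02 and -0.05 over all genes tested. In LGR5+ cells the 3 treated libraries lay above the 3 untreated libraries for all 10 genes, a separation found for 22.3% of all tested genes. Because the genes were listed with earlier results known, these counts are a description. In LGR5- cells this held for 8 genes, with overlap for *Pmaip1* and *Aen*, and for 13.7% of all tested genes. An exact two-sided permutation test per gene, which exchanged treated and untreated libraries within each population, gave P = 0.005 for 8 genes and P = 0.01 for *Pmaip1* and *Aen*; 0.005 is the smallest value that its 400 arrangements allow. Without both LGR5- replicate 3 libraries the same exact test gave P = 0.0167 for all 10 genes, the smallest value that its 120 arrangements allow. In edgeR's test without these libraries the 9 genes called in LGR5- cells were again *Fas* (log2 fold change 2.95), *Perp* (2.85), *Trp53inp1* (2.09), *Bbc3* (1.79), *Pidd1* (1.52), *Eda2r* (1.26), *Aen* (1.11), *Bax* (0.94) and *Tnfrsf10b* (0.82), with adjusted P from 1.33e-05 for *Fas* to 0.0305 for *Tnfrsf10b*.

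**Figure D1:**
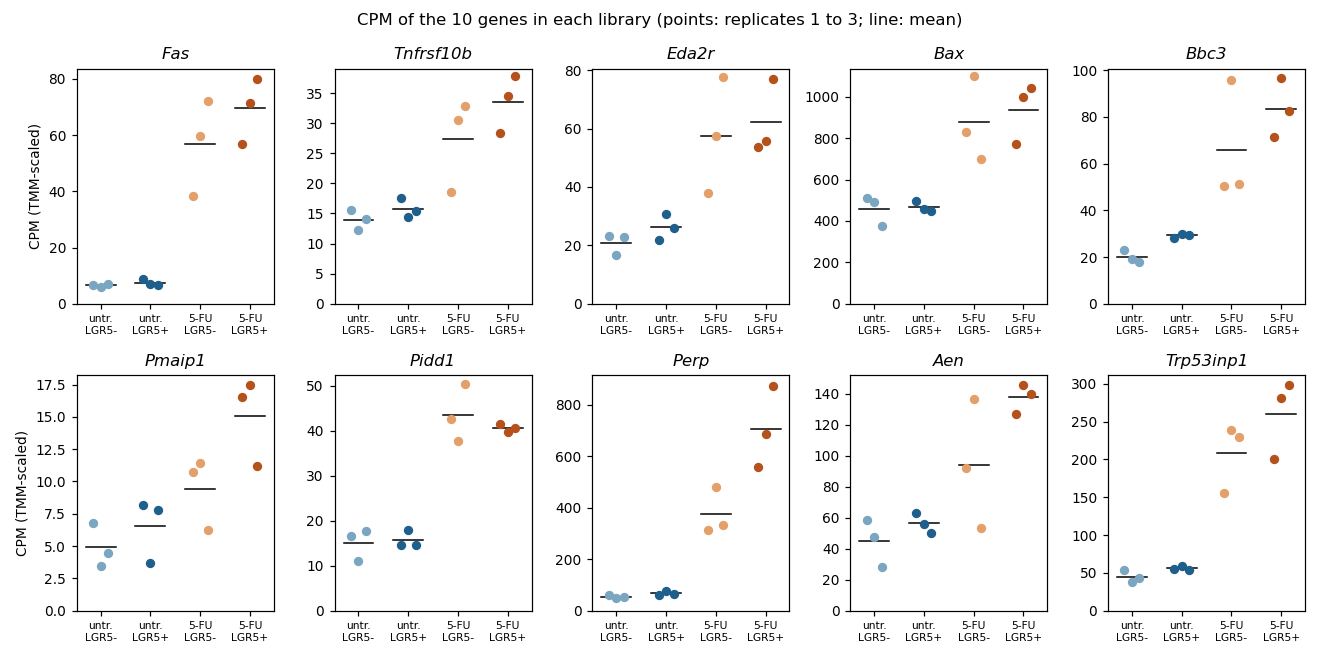
Level of each of the 10 genes (CPM after TMM scaling, linear axes from 0) in the 4 groups; points are the 3 libraries of a group in the order of their replicate numbers and lines are group means. The treated libraries of *Fas*, *Perp* and *Trp53inp1* lie far above all untreated libraries, while the treated LGR5- libraries of *Pmaip1* and *Aen* overlap the untreated ones.

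*Fas* encodes the receptor for FAS ligand, a membrane protein whose death domain recruits FADD and caspase-8 (chr19:34290666-34327772, GRCm38, plus strand). It stood at 6.54, 6.14 and 7.22 CPM in untreated LGR5- replicates 1 to 3 and at 8.89, 7.13 and 6.57 CPM in untreated LGR5+ replicates 1 to 3. After 5-FU it stood at 38.3, 59.8 and 72.3 CPM in LGR5- cells and at 56.9, 71.6 and 80.0 CPM in LGR5+ cells. Even the lowest treated library, LGR5- replicate 1, was well above the highest untreated one. The rise was 9.22-fold in LGR5+ cells (log2 fold change 3.20, SE 0.24, adjusted P = 1.93e-06) and 8.54-fold in LGR5- cells (3.09, SE 0.24, adjusted P = 3.89e-06). Among all genes tested *Fas* ranked 14 by P in LGR5+ cells and 11 in LGR5- cells. Neither the ligand nor the adaptor of this receptor was called. *Fasl*, the ligand, was not tested, since it held no read in 3 of the groups and averaged 0.0183 CPM in 5-FU-treated LGR5+ cells. *Fadd*, the adaptor, was at 4.85 ± 0.113 CPM in untreated and 4.60 ± 0.435 CPM in treated LGR5+ cells (log2 fold change -0.08, SE 0.26, adjusted P = 0.881).

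*Tnfrsf10b* encodes the mouse TRAIL receptor DR5 (chr14:69767472-69784411, plus strand). It measured 15.6, 12.3 and 14.1 CPM in untreated LGR5- cells, 17.6, 14.4 and 15.4 in untreated LGR5+ cells, 18.6, 30.5 and 32.8 in treated LGR5- cells and 28.4, 34.6 and 37.8 in treated LGR5+ cells. No treated library overlapped the untreated ones of its population, although treated LGR5- replicate 1 exceeded the highest untreated LGR5- library by a narrow margin. The rise, 2.12-fold in LGR5+ cells (log2 fold change 1.09, SE 0.21, adjusted P = 0.00307) and 1.95-fold in LGR5- cells (0.96, SE 0.21, adjusted P = 0.00754), was among the smallest of the 10. *Tnfsf10*, which encodes the ligand TRAIL, averaged 0.299 to 0.398 CPM per group, with no call in either population.

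*Eda2r* encodes a receptor of the ectodysplasin isoform EDA-A2 that belongs to the same TNF receptor family (chrX:97333840-97377216, minus strand). It measured 23.3, 16.6 and 22.8 CPM in untreated LGR5- cells and 22.0, 30.6 and 25.9 in untreated LGR5+ cells. After treatment it measured 38.0, 57.3 and 77.5 CPM in LGR5- cells and 53.8, 55.7 and 77.0 CPM in LGR5+ cells. The treated libraries were separate from the untreated ones in both populations, and replicate 3 was the highest in both treated groups. The rise was 2.37-fold in LGR5+ cells (log2 fold change 1.25, SE 0.25, adjusted P = 0.00347) and 2.75-fold in LGR5- cells (1.46, SE 0.25, adjusted P = 0.0016). The related receptor gene *Edar*, in contrast, fell in both, by 1.31 and 1.03 on the log2 scale (adjusted P = 0.00462 and 0.0203), and the ligand gene *Eda* was not tested, with at most 0.0199 CPM on average in a group.

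*Bax* encodes the effector of the BCL2 family that oligomerises in the outer mitochondrial membrane and releases cytochrome c (chr7:45461697-45466898, minus strand). It was the most abundant of the 10, with 512, 493 and 375 CPM in untreated LGR5- cells and 497, 456 and 447 in untreated LGR5+ cells. After 5-FU it reached 829, 1100 and 700 CPM in LGR5- cells and 770, 1000 and 1040 CPM in LGR5+ cells. All treated libraries exceeded all untreated ones, but the fold was the smallest of the 10: 2.01-fold in LGR5+ cells (log2 fold change 1.01, SE 0.22, adjusted P = 0.00655) and 1.91-fold in LGR5- cells (0.93, SE 0.22, adjusted P = 0.0112). In LGR5- cells the *Bax* call was lost without treated replicate 2 (log2 fold change 0.73, adjusted P = 0.0596) and in a fit of only the libraries compared (0.94, adjusted P = 0.0696). In the annotation 192 exonic bases of *Bax* (12.18%) also belong to the overlapping gene *Gm45808* on the same strand. *Gm45808* is not among the identifiers of the count table, so none of the counted reads was assigned to it.

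Promoter windows from RefSeq (GRCm38), from 250 bases before to 50 after a start site, were given for 6 of the 10 genes (*Bax*, *Bbc3*, *Aen*, *Pidd1*, *Fas* and *Eda2r*). They were searched for the p53 decamer motif, the 10-base unit that p53 binds in pairs; it is its own reverse complement, so that a single search covers both strands. The motif was found in windows of 2 of the 6 genes, *Bax* and *Aen*, while 9.55% of 27025 genes and 8.36% of all 32851 windows held it. Such a match is a description of the letters and not a measured binding site. The *Bax* match is shown because it lies before the start of a member that rose, at chr7:45467090-45467099; its first base is 201 bases before the start site, outside *Bax* exons. The 100 bases around it, chr7:45467045-45467144 on the minus strand, read as follows, with the decamer in capitals.
Bax: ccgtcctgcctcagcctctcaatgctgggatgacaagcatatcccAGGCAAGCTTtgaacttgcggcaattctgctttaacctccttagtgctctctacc

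*Bbc3* encodes PUMA, a BH3-only protein that binds the BCL2-type inhibitors of BAX and BAK (chr7:16308393-16318205, plus strand). It measured 23.1, 19.0 and 17.8 CPM in untreated LGR5- cells and 28.3, 30.0 and 29.6 in untreated LGR5+ cells. After treatment it measured 50.2, 95.8 and 51.1 CPM in LGR5- cells and 71.2, 96.7 and 82.5 CPM in LGR5+ cells. Replicate 2 was the highest in both treated groups, and in LGR5- cells it stood well above the other treated libraries. The rise was 2.85-fold in LGR5+ cells (log2 fold change 1.51, SE 0.24, adjusted P = 0.000584) and 3.29-fold in LGR5- cells (1.72, SE 0.24, adjusted P = 0.000318). Without treated LGR5- replicate 2 the *Bbc3* log2 fold change in LGR5- cells was 1.34 and remained past the threshold.

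*Pmaip1* encodes NOXA, a second BH3-only protein, which binds MCL1 (chromosome 18). It was the least abundant of the 10 genes, at 6.79, 3.46 and 4.50 CPM in untreated LGR5- cells and 8.20, 3.69 and 7.77 in untreated LGR5+ cells. Treated libraries had 10.7, 11.4 and 6.24 CPM in LGR5- cells and 16.5, 17.5 and 11.2 CPM in LGR5+ cells. In LGR5- cells treated replicate 3 fell below untreated replicate 1, so the groups overlapped. The gene rose 2.30-fold in LGR5+ cells (log2 fold change 1.20, SE 0.34, adjusted P = 0.0255). In LGR5- cells the log2 fold change was 0.95 (SE 0.34, adjusted P = 0.0781). The *Pmaip1* call in LGR5+ cells was lost without untreated replicate 2 (log2 fold change 0.92, adjusted P = 0.105), untreated replicate 3 (1.34, adjusted P = 0.0509), treated replicate 1 (1.13, adjusted P = 0.0629) or treated replicate 2 (1.08, adjusted P = 0.106), and when library size alone was used for scaling (1.13, adjusted P = 0.0509). In LGR5- cells it was gained without treated replicate 3, a library with a high mitochondrial share (1.21, adjusted P = 0.0397), with DESeq2 (0.96, adjusted P = 0.042) and with no filter (0.98, adjusted P = 0.0258), but not without both LGR5- replicate 3 libraries (1.11, adjusted P = 0.0676).

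Of the partners at the mitochondrion, *Bak1*, which encodes the effector related to BAX, was at 2.85 ± 0.717 CPM in untreated and 3.24 ± 0.187 CPM in treated LGR5+ cells, with no call. *Bid*, which links death receptors to BAX, rose in LGR5+ cells from 50.7 ± 10.3 to 93.8 ± 5.08 CPM (log2 fold change 0.89, SE 0.23, adjusted P = 0.0165) and in LGR5- cells had a log2 fold change of 0.46 (SE 0.23, adjusted P = 0.198). The difference of these *Bid* responses was not called.

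*Pidd1* encodes the scaffold of the PIDDosome, which activates caspase-2 through the adaptor CRADD (chr7:141438113-141444025, minus strand). It measured 16.7, 11.1 and 17.6 CPM in untreated LGR5- cells, 14.6, 18.0 and 14.6 in untreated LGR5+ cells, 42.5, 37.6 and 50.3 in treated LGR5- cells and 41.4, 39.8 and 40.5 in treated LGR5+ cells. The treated LGR5+ libraries lay close together, and the treated libraries were separate from the untreated ones in both populations. *Pidd1* rose 2.58-fold in LGR5+ cells (log2 fold change 1.37, SE 0.19, adjusted P = 0.000268) and 2.87-fold in LGR5- cells (1.52, SE 0.19, adjusted P = 0.000169). Of its partners, *Cradd* was not called, with log2 fold changes of 0.20 and 0.02 in LGR5+ and LGR5- cells. *Casp2* was not called in either population alone, at -0.32 (adjusted P = 0.171) in LGR5+ and -0.44 (adjusted P = 0.0638) in LGR5- cells, but fell in the average of both populations (log2 fold change -0.38, SE 0.11, adjusted P = 0.0142). Its treated libraries lay below the untreated ones in each population, at 17.7 to 21.9 against 23.4 to 25.6 CPM in LGR5+ cells and 16.4 to 17.2 against 22.2 to 24.0 CPM in LGR5- cells.

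*Perp* encodes a tetraspan membrane protein of desmosomes, the junctions that anchor keratin filaments, and is known both for death in response to p53 and for epithelial adhesion under p63 (chr10:18845020-18857073, plus strand). It measured 60.7, 49.7 and 51.6 CPM in untreated LGR5- cells and 61.0, 77.1 and 63.1 in untreated LGR5+ cells. Treated libraries had 312, 482 and 333 CPM in LGR5- cells and 557, 684 and 872 CPM in LGR5+ cells. Within each treatment the LGR5+ libraries lay above the LGR5- libraries, the lowest LGR5+ against the highest LGR5- library being 61.0 against 60.7 CPM before and 557 against 482 CPM after 5-FU. The rise was 10.5-fold in LGR5+ cells (log2 fold change 3.39, SE 0.24, adjusted P = 1.69e-06) and 6.96-fold in LGR5- cells (2.80, SE 0.24, adjusted P = 7.75e-06).

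*Aen* encodes an exonuclease of the nucleus and nucleolus that takes part in DNA breakdown in apoptosis (chr7:78895854-78911209, plus strand). It measured 58.7, 47.8 and 28.3 CPM in untreated LGR5- cells, 63.2, 55.7 and 50.4 in untreated LGR5+ cells, 92.0, 137 and 53.6 in treated LGR5- cells and 127, 146 and 140 in treated LGR5+ cells. Treated LGR5- replicate 3, with its high mitochondrial share, stayed below untreated LGR5- replicate 1, while the treated LGR5+ libraries all stood far above the untreated ones. *Aen* rose 2.44-fold in LGR5+ cells (log2 fold change 1.29, SE 0.30, adjusted P = 0.00927) and 2.10-fold in LGR5- cells (1.07, SE 0.30, adjusted P = 0.0265). Without both LGR5- replicate 3 libraries the value in LGR5- cells was 1.11 (adjusted P = 0.00238). The *Aen* call in LGR5- cells was lost without untreated replicate 2 (1.12, adjusted P = 0.0669), untreated replicate 3 (0.82, adjusted P = 0.0579) or treated replicate 2 (0.69, adjusted P = 0.144) and in a fit of only the libraries compared (1.08, adjusted P = 0.104), and that in LGR5+ cells without untreated replicate 3 (1.22, adjusted P = 0.0512). The decamer match of *Aen* lies in an annotated first exon of the gene, 121 bases before its other RefSeq start site, and the 30 bases chr7:78895927-78895956 on the plus strand are shown for comparison with *Bax*, again with the decamer in capitals.
Aen: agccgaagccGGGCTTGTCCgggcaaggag

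*Trp53inp1* encodes a stress protein that binds p53 and proteins of the autophagosome (chr4:11156431-11174379, plus strand). It measured 54.4, 38.3 and 42.9 CPM in untreated LGR5- cells and 55.7, 59.4 and 53.5 in untreated LGR5+ cells. Treated libraries had 155, 239 and 230 CPM in LGR5- cells and 200, 281 and 298 CPM in LGR5+ cells, all more than 2 times the highest untreated library. The fold was nearly the same in both populations, 4.62 in LGR5+ cells (log2 fold change 2.21, SE 0.22, adjusted P = 1.7e-05) and 4.60 in LGR5- cells (2.20, SE 0.23, adjusted P = 3.3e-05).

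**Figure D2:**
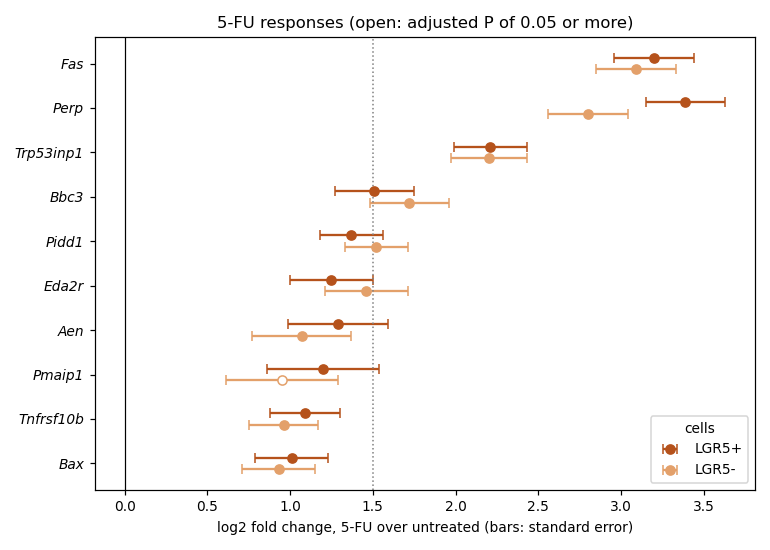
Log2 fold change of each gene after 5-FU (horizontal axis) in LGR5+ and LGR5- cells; bars are standard errors of the edgeR fit, open symbols mark an adjusted P of 0.05 or more, and the dotted line marks 1.5. *Fas*, *Perp* and *Trp53inp1* stand apart at 2.20 to 3.39, the other genes lie between 0.93 and 1.72, and the only open symbol is *Pmaip1* in LGR5- cells.

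When the thresholds of the study's methods were used instead (a log2 fold change beyond 1.5 at P under 0.05 without adjustment), 4 genes counted as higher in LGR5+ cells (*Fas*, *Perp*, *Bbc3* and *Trp53inp1*) and 5 in LGR5- cells (the same 4 and *Pidd1*), beside 4.42% and 4.25% of all genes tested. For the average of both populations these thresholds gave the same number as in LGR5+ cells, 4, beside 4.32% of all genes. *Bbc3* in LGR5+ cells, at 1.51, and *Pidd1* in LGR5- cells, at 1.52, were just inside, and *Eda2r* in LGR5- cells, at 1.46, was just outside.

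Fold change and abundance ordered the genes differently. Per kilobase of exon in the annotation, untreated LGR5+ cells had 296 ± 16.9 CPM per kb of *Bax* and 34.4 ± 4.46 of *Perp*, followed by 13.8 ± 0.427 of *Bbc3*, 9.72 ± 1.11 of *Aen* and 8.68 ± 0.456 of *Trp53inp1* (SD, n = 3). The other 5 genes lay between 2.40 and 4.44 CPM per kb, and the neighbours *Aen* and *Trp53inp1*, and *Fas* (3.65 ± 0.588) and *Pidd1* (3.47 ± 0.435), did not differ beyond their SDs. After 5-FU the top of the order in LGR5+ cells was *Bax* with 595 ± 93.4, *Perp* with 361 ± 81.3, *Trp53inp1* with 40.1 ± 8.11, *Bbc3* with 39.3 ± 6.00 and *Fas* with 33.7 ± 5.68 CPM per kb. By mean level *Fas* thus moved from place 7 to place 5 in LGR5+ cells and from place 8 to place 5 in LGR5- cells. These places were not resolved from those of its neighbours. In untreated LGR5- cells *Fas* had 3.22 ± 0.263, *Pidd1* 3.35 ± 0.774 and *Eda2r* 3.55 ± 0.634 CPM per kb. In treated LGR5- cells *Fas* had 27.5 ± 8.34, *Bbc3* 30.9 ± 12.3 and *Trp53inp1* 32.1 ± 7.15 CPM per kb. The gain in level per length was largest for *Perp* in LGR5+ cells, 327 CPM per kb, and for *Bax* in LGR5- cells, 265 CPM per kb. In LGR5+ cells *Perp* made 43.9% and *Bax* 40.1% of the summed gain of the 10 genes, and in LGR5- cells *Perp* made 31.4% and *Bax* 50.4%. The lowest gains were those of *Pmaip1*, 3.13 and 1.66 CPM per kb in LGR5+ and LGR5- cells. Exon lengths are those of the annotation used here, which may differ from the isoforms expressed.

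**Figure D3:**
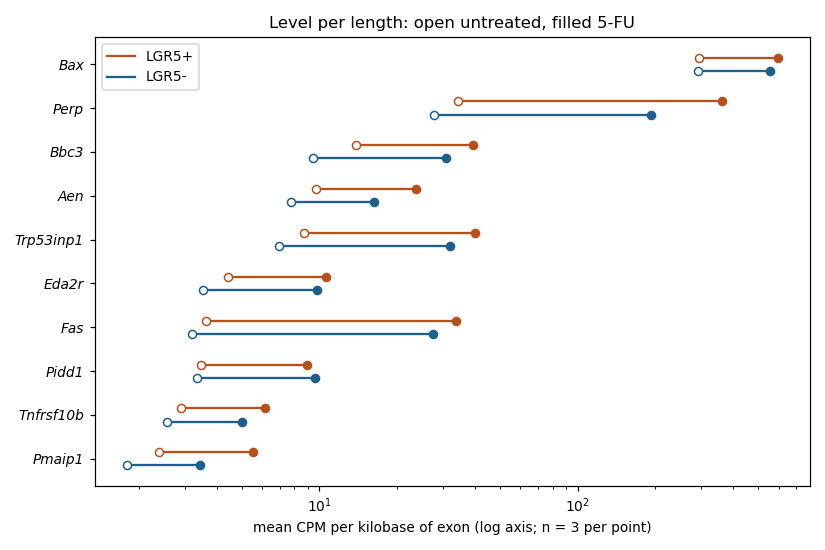
Mean level per kilobase of exon (CPM per kb, log axis, n = 3 libraries per point) of each gene; open circles are untreated and filled circles 5-FU-treated cells, joined for LGR5+ and LGR5- cells. *Bax* starts highest and moves least on this axis, while *Fas* crosses from 3.65 to 33.7 CPM per kb and *Perp* from 34.4 to 361 in LGR5+ cells.

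The next question was whether the sorted populations differed in these genes. In edgeR's test none of the 10 genes was called between untreated LGR5+ and LGR5- cells, and 0.00% of all genes tested were; 1 of the 10 and 214 of all genes had an unadjusted P under 0.05, and DESeq2 also called none of the 10. All 10 differences, LGR5+ minus LGR5-, were above 0, with a median log2 value of 0.31 beside -0.02 over all genes, but those of *Bax* and *Pidd1* turned negative when single libraries were left out. The gene with the unadjusted P under 0.05 was *Bbc3*, at 29.3 ± 0.906 CPM in LGR5+ and 20.0 ± 2.76 CPM in LGR5- cells (log2 difference 0.55, 95% interval 0.05 to 1.06, adjusted P = 1.0 in edgeR's test). *Bbc3* and *Perp* were the 2 genes whose untreated LGR5+ libraries all lay above the LGR5- libraries, a separation found in 2.71% of all tested genes. The intervals of *Bax*, from -0.45 to 0.49, and of *Pidd1*, from -0.36 to 0.47, give the range of differences that these libraries allow. Without both LGR5- replicate 3 libraries none of the 10 was called in edgeR's test, the *Bbc3* difference was 0.48 (adjusted P = 0.847) and that of *Perp* 0.28 (adjusted P = 0.847), and that of *Bax* was -0.11 (adjusted P = 0.939).

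After 5-FU, again none of the 10 genes was called in edgeR's test, as was 0.00% of all genes tested, while 1 of the 10 and 2095 of all genes had an unadjusted P under 0.05. That gene was *Perp*, at 705 ± 159 CPM in LGR5+ and 376 ± 92.8 CPM in LGR5- cells, 1.88-fold higher (log2 difference 0.91, SE 0.22, 95% interval 0.43 to 1.38, adjusted P = 0.316 in edgeR's test). It was the only one of the 10 whose treated LGR5+ libraries all lay above the LGR5- libraries, a separation found in 14.2% of all tested genes. No label states that libraries with the same replicate number were paired. With the replicate number as a block in an edgeR fit of the 6 treated libraries, chosen after the data were seen, *Perp* was called. Its log2 difference there was 0.84 (SE 0.19, adjusted P = 0.0449), and 451 of all genes were called. DESeq2 called it too (0.89, adjusted P = 0.0279). Over the other alternatives its adjusted P ranged from 0.158 to 0.883, the highest without treated LGR5- replicate 3. Without both LGR5- replicate 3 libraries the *Perp* difference was 0.83 (SE 0.23, adjusted P = 0.282), and none of the 10 was called. The median of the 10 differences after 5-FU was 0.31 on the log2 scale, beside 0.03 over all genes. The other 9 ran from -0.10 for *Pidd1* to 0.67 for *Pmaip1*, the latter with an interval of -0.04 to 1.38. In the paired fit of the 6 treated libraries *Pmaip1* had a difference of 0.62 (SE 0.16, adjusted P = 0.0565). Of the 3 pairs of treated libraries with the same number, LGR5+ was the higher in all 3 for *Perp*, *Pmaip1*, *Fas*, *Tnfrsf10b*, *Aen*, *Bbc3* and *Trp53inp1*. It was the higher in 1 of 3 for *Bax*, *Eda2r* and *Pidd1*. For 29.6% of all genes tested LGR5+ was the higher in all 3 treated pairs. Of the 3 untreated pairs, LGR5+ was the higher in all 3 for *Perp*, *Bbc3*, *Pmaip1*, *Tnfrsf10b*, *Aen* and *Trp53inp1*. It was the higher in 2 of 3 for *Fas* and *Eda2r* and in 1 of 3 for *Bax* and *Pidd1*. For 10.4% of all genes tested LGR5+ was the higher in all 3 untreated pairs. Over both treatments together, an exact two-sided permutation test that exchanged LGR5+ and LGR5- libraries within each treatment gave P = 0.005 for *Perp*, the smallest value that its 400 arrangements allow, with LGR5+ higher by 0.61 on the log2(CPM + 0.5) scale. The same exact test gave P = 0.03 for *Bbc3* (0.47), P = 0.05 for *Trp53inp1* (0.32) and P = 0.065 to 0.97 for the other 7 genes. With both LGR5- replicate 3 libraries left out it gave P = 0.01 for *Perp* (0.56), the smallest value of its 100 exact arrangements, P = 0.09 for *Bbc3* (0.36), P = 0.1 for *Trp53inp1* (0.35) and P = 0.06 to 0.53 for the other 7 genes. These tests, 10 with and 10 without the libraries, are not adjusted and were added after the data were seen.

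The summed level of the stratified squamous markers, which include keratin genes that attach to desmosomes, was 38.3 to 47.5 CPM in untreated LGR5-, 31.2 to 97.5 in untreated LGR5+, 161 to 450 in treated LGR5- and 735 to 1320 CPM in treated LGR5+ libraries. Like *Perp*, it was higher in treated libraries and highest in treated LGR5+ libraries. Unlike *Perp*, its untreated LGR5+ and LGR5- libraries overlapped. Of the 7 markers, 6 rose in each population, beside 9.66% of all genes tested in LGR5+ and 8.30% in LGR5- cells, the exception being *Trp63*, at 5.14 ± 2.61 and 6.35 ± 1.05 CPM in untreated and treated LGR5+ cells. Their part in the *Perp* result was not tested.

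The responses themselves were then compared. None of the 10 genes was called for a difference of the 5-FU response between LGR5+ and LGR5- cells in edgeR's test, beside 0.00% of all genes; at an unadjusted P under 0.05 there were 0 of the 10 and 254 of all genes, and DESeq2 called none of the 10. The differences, LGR5+ minus LGR5- on the log2 scale, ran from -0.21 for *Bbc3* and *Eda2r* to 0.59 for *Perp* (SE 0.32, 95% interval -0.08 to 1.27, adjusted P = 1.0 in edgeR's test). For *Fas* the difference was 0.11 with an interval of -0.58 to 0.80, and for *Trp53inp1* it was 0.01 with an interval of -0.65 to 0.66. These intervals show the size of a difference that 3 libraries a group could have missed. When both LGR5- replicate 3 libraries were left out, the *Perp* difference of responses was 0.54 (adjusted P = 0.629 in edgeR's test), and none of the 10 was called.

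Averaged over both populations, all 10 genes rose in edgeR's test, beside 15.6% of all genes tested, with a median log2 fold change of 1.40 against -0.04 for all genes. The averages ran from 0.97 for *Bax* to 3.15 for *Fas*, and *Fas* and *Perp* ranked 11 and 12 of all genes by P.

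The 10 genes did not vary together in every respect. After the mean of its group was subtracted from each library's log2(CPM + 0.5), the 3 receptor genes deviated together, with correlations of 0.71 to 0.93 (median 0.74) over 12 libraries, the highest between *Fas* and *Tnfrsf10b*, and of 0.52 to 0.92 (median 0.65) without the 2 LGR5- replicate 3 libraries. *Bax* correlated with *Aen* (0.90) and *Bbc3* (0.81), but the median of the 3 correlations among the mitochondrial genes *Bax*, *Bbc3* and *Pmaip1* was 0.35, and 0.17 without those 2 libraries. Across receptor and mitochondrial genes the median of 9 correlations was 0.10. Without the same 2 libraries that median was 0.65, and the correlation of *Fas* with *Bax* went from 0.10 to 0.95 and that of *Fas* with *Aen* from -0.21 to 0.88, while *Pmaip1* with *Fas* stayed low at 0.05. The points share libraries and their depth, and the values are a description with no test. Treated LGR5- replicate 3 was the highest of its group in *Fas*, *Tnfrsf10b*, *Eda2r* and *Pidd1* and the lowest in *Bax*, *Pmaip1* and *Aen*; untreated LGR5- replicate 3 was likewise lowest in *Bax* and *Aen*. The part of the mitochondrial share in this was not tested.

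**Figure D4:**
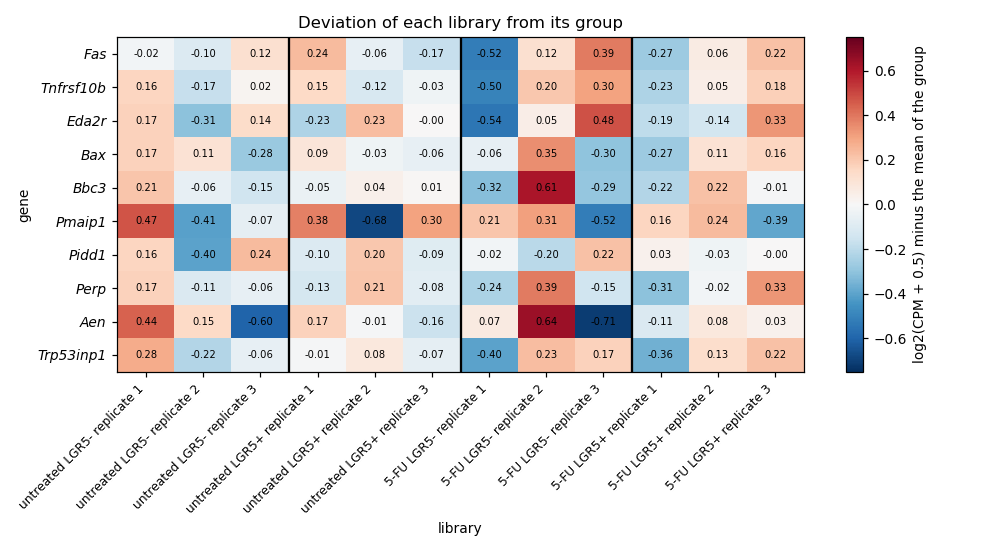
Deviation of each library (columns, grouped by black lines) from the mean of its group in log2(CPM + 0.5) for the 10 genes (rows), printed in each cell and coloured red above and blue below the group mean. In treated LGR5- replicate 3 the 3 receptor genes are at 0.30 to 0.48 and *Aen* at -0.71, and *Pmaip1* is at -0.68 in untreated LGR5+ replicate 2.

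The genes whose profile over the 12 libraries was most like the mean of the 10 were *Mcam* (Pearson correlation 0.996), *Ccng1* (0.994), *Mdm2* (0.992), *Plk2* (0.991) and *Serpine2* (0.991), among all genes tested. These correlations include the step from untreated to treated libraries. Among the 10 genes themselves the median of 45 pairwise correlations was 0.92 over all libraries and 0.29 after group means were subtracted. The genes named are those with the highest values, so the list is a description. *Ccng1*, *Mdm2* and *Plk2* are known p53 targets. *Mcam*, which encodes a cell adhesion molecule, went from 33.5 ± 3.51 to 296 ± 41.7 CPM in LGR5+ cells. Of the single genes, *Fas* (0.993) and *Trp53inp1* (0.995) had the same nearest gene, *Gxylt2*, which encodes a glycosyltransferase, and *Perp* was closest to *Serpine2* (0.996), a protease inhibitor gene. *Bax* was closest to *Hspb8* (0.985), *Bbc3* to *Il10rb* (0.991), *Pmaip1* to *Pyroxd1* (0.975), *Eda2r* to *Tspan8* (0.980), *Tnfrsf10b* to *Tigit* (0.986), *Aen* to *Lmna* (0.981) and *Pidd1* to *Ahnak2* (0.985). *Tigit* had only 6 to 15 reads in the untreated libraries.

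Other genes of the p53 pathway were read from lists written from general knowledge. Among p53 and its regulators 16 of 17 genes were tested; 2 rose and 1 fell in LGR5+ cells, and 2 rose and 2 fell in LGR5- cells. Over all genes tested, 6.37% were lower in LGR5+ and 7.11% in LGR5- cells, beside the shares of higher genes given above. *Trp53* itself was not called. In LGR5+ cells it was at 250 ± 31.9 CPM untreated and 299 ± 9.96 CPM treated, and in LGR5- cells at 252 ± 92.2 and 229 ± 67.0 CPM. *Mdm2*, whose product degrades p53, rose by a log2 fold change of 1.91 in LGR5+ and 1.56 in LGR5- cells (adjusted P = 1.7e-05 and 0.000123), and *Ppp1r13l*, which encodes the p53 inhibitor iASPP, by 1.62 and 1.44 (adjusted P = 9.29e-05 and 0.000321). *Chek1*, a checkpoint kinase gene, fell by 1.47 and 1.69 on the log2 scale (adjusted P = 0.00383 and 0.00203).

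Of the p53 targets of arrest, repair and feedback, 24 of 25 genes were tested, of which 12 rose and 1 fell in LGR5+ cells and 13 rose and 1 fell in LGR5- cells, with median log2 fold changes of 0.83 and 0.85. Over all genes tested 9.66% and 8.30% rose and 6.37% and 7.11% fell, with medians of -0.02 and -0.05. The antiproliferative gene *Btg2* rose by 2.07 and 2.05 (adjusted P = 1.5e-05 and 2.82e-05), *Sfn*, which encodes 14-3-3 sigma, by 2.86 and 2.08 (7.39e-06 and 0.000117), and the polo-like kinase gene *Plk2* by 2.45 and 2.06 (2.89e-05 and 0.000162), LGR5+ first.

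Of 21 tested death receptors, ligands and adaptors, 2 rose and 1 fell in each population, and the medians were 0.06 and -0.12; the share that rose was close to that over all genes tested, 9.66% in LGR5+ and 8.30% in LGR5- cells. *Faim2*, whose product inhibits FAS signalling, rose by a log2 fold change of 1.47 in LGR5+ and 1.42 in LGR5- cells (adjusted P = 0.000171 and 0.000321), and *Tnfrsf21*, the death receptor DR6 gene, by 1.5 and 1.19 (0.000211 and 0.00166); the gene that fell was *Edar*. Of 25 tested genes of mitochondrial apoptosis and caspases, 5 rose and 2 fell in LGR5+ cells and 2 rose and 2 fell in LGR5- cells, with medians of 0.14 and 0.18. The share that rose was thus above the 9.66% of all genes in LGR5+ cells and close to the 8.30% in LGR5- cells, and the share that fell was close to the 6.37% and 7.11% of all genes. The genes that rose in both act in opposite directions: *Bcl2l11*, which encodes the BH3-only protein BIM, rose by 1.05 and 0.79 (adjusted P = 0.0014 and 0.0102), and *Bcl2l1*, which encodes the inhibitor of apoptosis BCL-XL, by 1.09 and 0.86 (0.00353 and 0.0161). *Bok*, a BCL2 family effector gene, fell by 1.31 and 1.71 on the log2 scale (0.00847 and 0.00206).

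The desmosome list also holds the keratin genes *Krt5* and *Krt14*, whose filaments attach to desmosomes. Of its 11 tested genes, 8 rose in LGR5+ and 7 in LGR5- cells and none fell, with medians of 1.44 and 1.16. Over all genes tested 9.66% and 8.30% rose. *Krt14* rose by 4.21 and 2.87, *Krt5* by 3.38 and 2.68 and the desmocollin gene *Dsc2* by 1.44 and 0.84 on the log2 scale. Both keratins, and *Dsg3* of the same list, also stand among the squamous markers above. Of 19 tested autophagy and nuclease genes, 6 rose and 1 fell in LGR5+ cells and 4 rose in LGR5- cells, beside 9.66% and 8.30% of all genes tested that rose and 6.37% and 7.11% that fell. *Trp53inp2*, the paralog of *Trp53inp1*, rose by 0.88 and 0.96 (adjusted P = 0.00262 and 0.00198), and the autophagosome genes *Gabarap* (0.70 and 0.76) and *Map1lc3a* (0.64 and 0.74) rose by less.

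**Figure D5:**
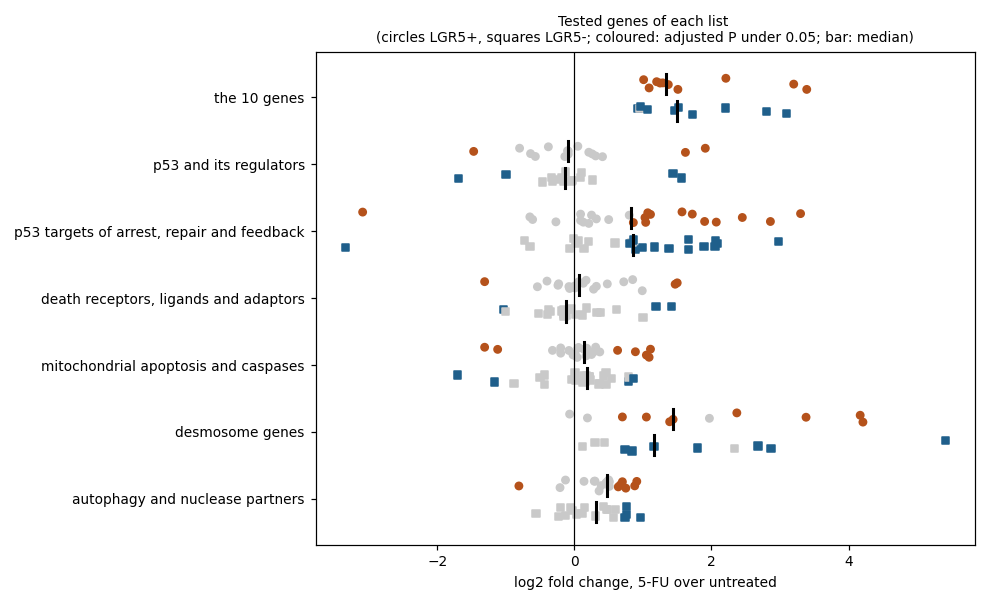
Log2 fold change after 5-FU (horizontal axis) of the 10 genes and of the tested genes of each pathway list, circles for LGR5+ and squares for LGR5- cells, coloured where the adjusted P was under 0.05, with black bars at the medians. The 10 genes all lie to the right of 0.93 or at it, while the death receptor and mitochondrial lists centre between -0.12 and 0.18.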

How the data were processed

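RNA from sorted LGR5+ and LGR5- organoid cells, untreated or 5-FU-treated, was isolated with a micro-scale column kit, amplified with a SMARTer kit and sequenced in pairs of reads. The authors deposited raw read counts per Ensembl gene (47069 identifiers, 12 libraries, no normalization). The submitters' processing notes name HISAT, HISAT2, TopHat2, HTSeq and the build mm8, without versions or roles; whether counting used strand is not given. Names, positions and exon lengths came from GENCODE M21 (GRCm38), which matched 46488 identifiers and left 581 without a symbol. Library titles gave groups and replicate numbers, read with the series design.

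In R 4.3.3, edgeR 4.0.16 was run on the counts of all 12 libraries (filterByExpr, 16157 genes kept; TMM; robust glmQLFit on 4 group means; glmQLFTest), with Benjamini-Hochberg adjustment over all genes tested. The fit's common dispersion, 0.0708, equals a coefficient of variation of 26.6%. The standard error is the log2 fold change divided by the square root of F. The 95% intervals use 14.5 degrees of freedom, worked back from the F and P of edgeR's test. These include the part that the fit borrows from the spread of other genes. CPM are TMM-scaled; counting limits cover counting error only. Exact permutation tests and correlations used log2(CPM + 0.5). DESeq2 1.42.0, other filters and scalings, the study's thresholds, a fit of only the libraries compared, the replicate block and leaving out libraries were alternatives.

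The 10 genes and the lists were chosen with earlier results of these data known. Named were the 10 genes, *Lgr5*, up to 3 genes per pathway list with the smallest P in the averaged response, direct partners, the genes most alike and defining cell type markers. No label states that same-numbered libraries were paired. Deviations of same-numbered treated LGR5- and LGR5+ libraries correlated at 0.571, 0.217 and 0.304, each above the best match with another number (-0.333, 0.05 and 0.117). The untreated ones correlated at 0.481, -0.119 and 0.223. For untreated replicates 2 and 3 the best match with another number was higher, at 0.293 and 0.301.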

Additional observations from a re-analysis of the deposited data

How the results depend on the processing

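With the study's thresholds (unadjusted P under 0.05, absolute log2 fold change over 1.5) the number of the 10 genes called after 5-FU went from 10 to 4 in LGR5+ cells, from 9 to 5 in LGR5- cells and from 10 to 4 for the average, because the fold limit lies above the response of the other genes. Between treated LGR5+ and LGR5- cells the count went from 0 to 1 (*Perp*) with DESeq2 and to 1 with the replicate block in a fit of only the treated libraries, an alternative chosen after seeing the data; the block pairing in the fit of all 12 libraries changed no count (10, 9, 0, 0, 0 and 10 for LGR5+ response, LGR5- response, untreated difference, treated difference, difference of responses and average). Leaving out 1 library at a time gave 8 to 10 genes in LGR5+ cells, 7 to 10 in LGR5- cells, 10 to 10 for the average and 0 to 0 for the 3 other comparisons. Without both LGR5- replicate 3 libraries the counts were 9 for LGR5- cells and 10 for the average. No called value changed sign. Single calls were lost for *Pmaip1* in LGR5+ cells when only library size was used for scaling, and for *Bax* and *Aen* in LGR5- cells when only the 6 libraries compared were fitted; the cause was not tested. Calls over all genes moved more: with only the libraries compared there were 4045 in place of 2590 in LGR5+ cells and 1282 in place of 2489 in LGR5- cells, and with 1 library left out 1373 to 2488 and 1562 to 3418. The study's thresholds gave 1168 and 1131. Between treated populations they gave 274, DESeq2 82 and the paired fit 451, against 0.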

Other observations

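Some markers outside the 10 genes also moved with 5-FU. *Krt19* and *Krt7*, keratin genes of cholangiocytes, rose in LGR5+ cells from 479 ± 93.3 to 3690 ± 826 CPM and from 744 ± 25.1 to 4620 ± 1220 CPM (log2 fold changes 2.95 and 2.64, adjusted P = 2.05e-05 and 0.000127 in edgeR's test), while *Epcam* and *Sox9* were not called. The fetal liver gene *Afp* rose from 15.8 ± 4.19 to 39.1 ± 14.4 CPM (adjusted P = 0.0177), and the lysosomal gene *Cd68*, listed as a leucocyte marker, from 9.01 ± 3.63 to 37.7 ± 14.1 CPM (adjusted P = 0.00173), with *Ptprc* at 0.401 ± 0.195 and 0.981 ± 0.922 CPM. The summed leucocyte markers were 6.54 to 14.1 CPM in untreated and 17.2 to 54.8 CPM in treated libraries. The hepatocyte list summed to 11.2 to 22.6 CPM in untreated and 26.3 to 56.9 in treated libraries, the endothelial list to 1.67 to 4.06 CPM and the fibroblast list to 6.18 to 10.4 CPM over all libraries. The cholangiocyte list summed to 2390 to 3110 CPM in untreated and 3430 to 11900 CPM in treated libraries. The lung epithelium list, mostly *Sftpc*, summed to 3540 to 17400 CPM in untreated and 2770 to 6220 CPM in treated libraries. *Sftpc* fell in the average of both populations (log2 fold change -1.14, SE 0.39, adjusted P = 0.0378) but was not called in either alone. The surfactant gene *Sftpa1* of the same list rose in the average (1.85, SE 0.44, adjusted P = 0.00771), with 4.18 to 9.93 CPM in untreated and 13.7 to 35.6 CPM in treated LGR5+ libraries, and from 6.71 ± 5.07 to 24.1 ± 9.15 CPM in LGR5- cells, and was likewise not called in either alone, while *Sftpb*, *Abca3* and *Nkx2-1* were not called. *Scgb1a1*, a club cell gene of the same list, rose in the average (3.73, SE 0.83, adjusted P = 0.00747) and in LGR5- cells, from 1.56 ± 1.59 to 28.2 ± 21.5 CPM (log2 fold change 4.15, SE 1.22, adjusted P = 0.0478), and had a log2 fold change of 3.31 in LGR5+ cells (SE 1.12, adjusted P = 0.0767). The part of these cell type markers in the results on the 10 genes was not tested.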
